A study of Mus musculus with 103 samples.

Results

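Translational efficiency, the amount of ribosome footprint signal per unit of RNA, was compared between the cortex of Nsun2 KO and WT mice. Its members are the transcripts with a mean footprint value of at least 10 over the 4 mice, which were 10674 of the 12719 transcripts in the table (83.9%). For each transcript and mouse, efficiency is log2(footprint signal + 1) minus log2(RNA signal + 1), so a log2 fold change of efficiency is the log2 fold change of footprints minus that of RNA. The series holds 103 samples, of which these 4 adult cortex samples carry matched RNA and ribosome profiling. The 2 KO mice carried floxed Nsun2 alleles and the Camk2a-Cre transgene. The 2 WT mice were of the floxed line and Cre-negative. In the study's methods such controls carried either 2 floxed alleles or a floxed allele and an allele written as a minus sign. The minus sign is not explained there, and which of these genotypes the WT mice had is not given in the sources used here. Camk2a-Cre recombines in excitatory forebrain neurons, so interneurons, glia and vessels of the KO cortex keep an intact Nsun2 gene. A call is a limma p-value, adjusted by Benjamini and Hochberg over the 10674 transcripts, below 0.05, and every adjusted p given is of that kind. Samples are numbered within a genotype and the labels give no litter, sex or batch, so the p-values measure the spread between these samples only.

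In ribosome profiling, nuclease digests the RNA that is not covered by a ribosome and the protected fragments are sequenced, so their number on a coding sequence follows how many ribosomes it holds. A change of RNA that footprints do not follow is called buffered, a change that footprints exceed is called amplified, and a change of footprints with little change of RNA is footprint-led. Nsun2 encodes a methyltransferase of cytosines in tRNAs, among them tRNAs that decode glycine. Because RNA enters efficiency with a minus sign, an error in the RNA value of a mouse moves efficiency the other way and by itself looks like buffering.

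The RNA values of each library are whole multiples of a single step, which would give 10465003 to 13174377 reads per mouse if a step is a read. The footprint values were corrected by the authors and keep no read count, so the depth behind them is unknown. Their sums were 1299137 to 1325836 per mouse. The deleted gene matched its labels. Nsun2 RNA was 362 and 368 in KO cortex, against 1292 and 1119.9 in WT cortex, and its footprints were 30.4 and 23.0 in KO cortex, against 130.0 and 114 in WT cortex. Nsun2 fell by 1.72 in RNA and by 2.17 in footprints on the log2 scale (limma adjusted p = 4.53e-05 and 0.000152), while its efficiency differed by -0.45 ± 0.22 (SE; adjusted p = 0.551). WT mouse 2 stood apart from the other 3 in median efficiency, at -2.65 against -2.70 in each, and had the highest microglial markers. In whole cortex, fewer cells of a type and less RNA per cell cannot be told apart.

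The study asked whether transcripts rich in glycine codons lose efficiency in KO cortex, so the glycine-richest stretch of 60 codons is shown for 5 transcripts that the results return to. Hnrnpa2b1 had the highest share of GGA codons of all transcripts tested and an efficiency that fell. Efficiency also fell for Hnrnpa3 and rose for Snrpn, Col1a1 fell in footprints, and Nrgn, a glycine-rich synaptic protein, had no call. The stretches are codons 215 to 274 of Hnrnpa2b1 (chr6:51464447-51466157, minus strand, exons 6 to 8 of 12), codons 250 to 309 of Hnrnpa3 (chr2:75662853-75663677, plus strand, exons 7 to 8 of 10), codons 163 to 222 of Col1a1 (chr11:94939436-94940547, plus strand, exons 6 to 10 of 51), codons 89 to 148 of Snrpn (chr7:59985140-59986774, minus strand, exons 6 to 8 of 10) and codons 18 to 77 of Nrgn (chr9:37545959-37546138, minus strand, exon 2 of 4). Positions are on mouse build GRCm38 with GENCODE vM21 transcripts, and all the stretches are coding. Each is written 5′ to 3′ with its glycine codons in capitals.
Hnrnpa2b1: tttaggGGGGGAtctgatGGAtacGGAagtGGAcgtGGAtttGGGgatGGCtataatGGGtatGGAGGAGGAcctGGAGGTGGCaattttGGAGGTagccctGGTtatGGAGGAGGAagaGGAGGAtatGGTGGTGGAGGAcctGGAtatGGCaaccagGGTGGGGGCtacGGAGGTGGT
Hnrnpa3: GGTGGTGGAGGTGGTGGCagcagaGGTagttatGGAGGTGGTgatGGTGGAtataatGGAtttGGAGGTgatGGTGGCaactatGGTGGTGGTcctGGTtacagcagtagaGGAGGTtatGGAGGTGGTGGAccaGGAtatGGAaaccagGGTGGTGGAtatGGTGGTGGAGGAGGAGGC
Col1a1: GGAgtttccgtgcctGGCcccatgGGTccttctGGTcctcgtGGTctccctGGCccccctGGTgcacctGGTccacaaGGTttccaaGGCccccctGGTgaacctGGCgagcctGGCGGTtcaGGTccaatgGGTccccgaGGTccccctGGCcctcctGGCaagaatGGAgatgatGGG
Snrpn: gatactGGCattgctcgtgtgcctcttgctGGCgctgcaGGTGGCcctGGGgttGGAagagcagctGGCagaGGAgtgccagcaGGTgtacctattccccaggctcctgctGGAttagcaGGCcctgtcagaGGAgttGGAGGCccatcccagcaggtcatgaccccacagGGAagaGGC
Nrgn: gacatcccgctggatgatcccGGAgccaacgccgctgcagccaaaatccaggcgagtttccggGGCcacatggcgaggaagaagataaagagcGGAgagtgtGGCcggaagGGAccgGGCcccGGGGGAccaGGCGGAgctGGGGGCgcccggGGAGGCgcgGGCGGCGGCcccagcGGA
The stretch of Hnrnpa2b1 holds 35 glycine codons, 19 of them GGA, and that of Hnrnpa3 holds 38, 14 of them GGA. Col1a1 has 21 with 2 GGA, in the regular glycine repeat of collagens, Snrpn has 16 with 6 GGA, and Nrgn has 18 with 7 GGA. Over the whole coding sequence, GGA made up 13.8% of codons in Hnrnpa2b1, 10.0% in Hnrnpa3, 9.0% in Nrgn, 5.8% in Col1a1 and 5.0% in Snrpn.

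Efficiency rose for 2 transcripts (0.0187% of those tested) and fell for 18 (0.169%) in KO cortex. With libraries rescaled by the median log ratio the calls were 4 higher and 14 lower, and with libraries rescaled to their sum 5 higher and 12 lower. At an unadjusted limma p below 0.05 there were 285 higher and 676 lower. The RNA of the same transcripts rose for 160 (1.5%) and fell for 176 (1.65%), and footprints rose for 22 (0.206%) and fell for 41 (0.384%). Rescaled by the median log ratio, RNA gave 122 higher and 204 lower, and footprints 22 and 53. The log2 fold changes spread over transcripts with an SD of 0.271 for RNA, 0.327 for footprints and 0.283 for efficiency, against median standard errors of 0.133, 0.204 and 0.213. Efficiency thus had the spread nearest to its own error. The median over all transcripts was 0.04 for RNA, 0.00 for footprints and -0.03 for efficiency.

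The number of calls rested on all 4 mice. Without KO mouse 1 there were 0 efficiency calls higher and 7 lower, and without KO mouse 2 there were 0 and 4. Without WT mouse 1 or WT mouse 2 limma made no efficiency call, with 817 and 744 transcripts at an unadjusted p below 0.05. In these fits the lone mouse of a genotype is assumed to vary like the pair of the other. In all 20 calls the KO and WT mice did not overlap in efficiency, so leaving out a mouse could not turn their direction. RNA calls without KO mouse 1 were 86 higher and 194 lower, and without KO mouse 2 they were 76 and 109. With WT mouse 1 left out they were 256 and 258, and with WT mouse 2 left out 35 and 15. Footprint calls were 14 higher and 56 lower without KO mouse 1, 5 and 12 without KO mouse 2, 166 and 382 with WT mouse 1 left out, and 58 and 78 with WT mouse 2 left out. A limma fit without its mean-variance trend and an interaction fit over the 8 libraries also made no efficiency call, with 744 and 464 transcripts at an unadjusted p below 0.05.

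**Figure D1:**
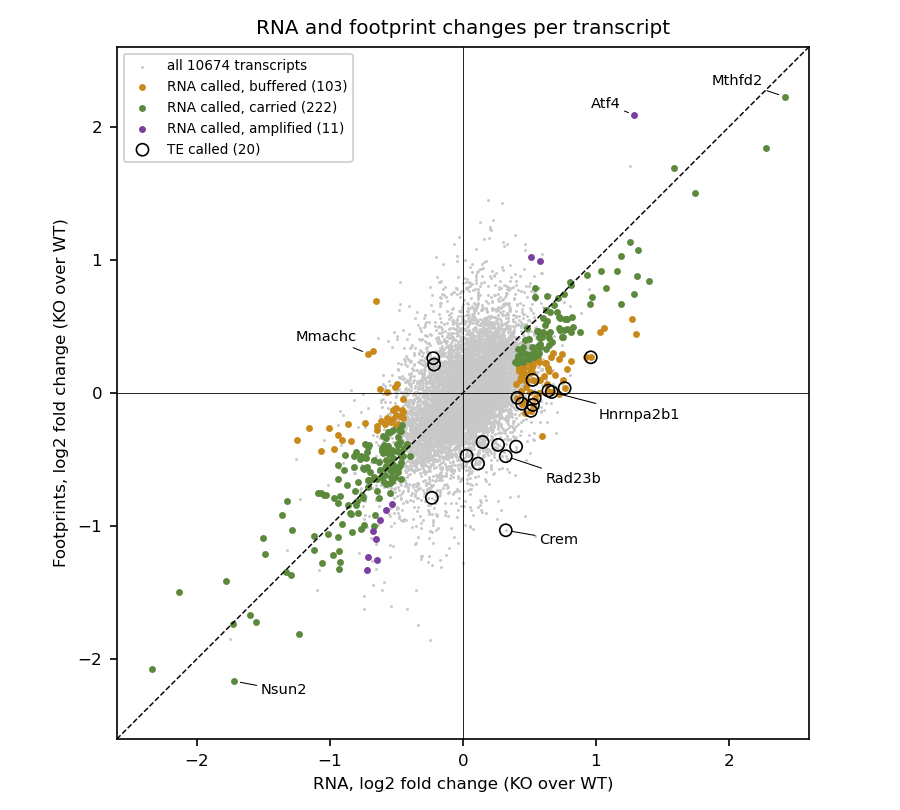
Log2 fold change (KO over WT) of RNA on the horizontal axis and of footprints on the vertical axis for the 10674 transcripts, with the dashed line where they are equal. Of the transcripts called for RNA, 103 are buffered, 222 carried and 11 amplified, and the rings mark the 20 efficiency calls, of which 18 lie below the dashed line.

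The 18 transcripts whose efficiency fell divided into 2 kinds. For 10 of them (55.6%) the change was buffered, with an RNA change of the opposite sign and at least 0.5 times its size. In these RNA rose and footprints were not called: the median log2 fold change was 0.53 in RNA, -0.01 in footprints and -0.62 in efficiency, and all 10 were called higher in RNA. They were Hnrnpa2b1, Serbp1, Hist1h4d, Kif5b, Tspyl4, Cacybp, Ints3, Eif1, Tra2b and Hnrnpa3. For the other 8 (44.4%) RNA was not called and differed by less than 0.5 times the efficiency change, here termed footprint-led: medians were 0.21 in RNA, -0.47 in footprints and -0.65 in efficiency. Among them were Rad23b, Slc8a1, Dnajb6, Lrp1, Napg, Ufd1 and Crem, and 3 of these 8, Rad23b and Lrp1 among them, were called lower in footprints too. No efficiency call was amplified, that is, had an RNA change of the same sign and at least 0.5 times its size.

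Among the buffered transcripts, Hnrnpa2b1, which binds nuclear and transported RNAs, had an RNA signal of 4394 and 4328 in KO cortex, against 2838 and 2656 in WT cortex. Its footprints were 550.2 and 549.8 in KO cortex, against 538 and 557 in WT cortex. All 4 footprint values lay within the same narrow range while the RNA of both KO mice lay far above that of both WT mice, and efficiency fell with a log2 fold change of -0.66 ± 0.10 (SE; adjusted p = 4.29e-05). Tra2b, a splicing activator, had RNA of 1412 and 1480.4 in KO cortex, against 939 and 912 in WT cortex, and footprints of 161 and 167 in KO cortex, against 173 and 152 in WT cortex. Its footprints overlapped between genotypes and its efficiency fell with -0.62 ± 0.15 (adjusted p = 0.0374). Hnrnpa3, a relative of Hnrnpa2b1, had RNA of 4026 and 4281 in KO cortex, against 3218 and 3033 in WT cortex, and footprints of 452 and 432 in KO cortex, against 456 and 450.3 in WT cortex, with an efficiency change of -0.45 ± 0.11 (adjusted p = 0.0466). Serbp1, an mRNA-binding protein found on ribosomes, had RNA of 7352 and 7644 in KO cortex, against 5280.1 and 5032 in WT cortex, and footprints of 463 and 426 in KO cortex, against 462 and 450.2 in WT cortex. Its efficiency fell with -0.58 ± 0.11 (adjusted p = 0.0022). Hnrnpa3 and Serbp1 fall outside the rule for named transcripts and were chosen after their values were seen, as were Tspyl4, Cacybp, Lrp1 and Napg.

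The other buffered transcripts served transport, translation start and transcription. Kif5b, a heavy chain of the kinesin that carries cargo along axons, had RNA of 7389 and 5247 in KO cortex, against 3499.9 and 3834 in WT cortex. Its footprints were 219.5 and 251 in KO cortex, against 224 and 234 in WT cortex, so the genotypes overlapped, and its efficiency change was -0.73 ± 0.14 (adjusted p = 0.00337). The KO mice differed widely from each other in Kif5b RNA but not in its footprints. Eif1, the initiation factor that guards start codon choice, had RNA of 4594 and 5005 in KO cortex, against 3486 and 3561 in WT cortex, with footprints of 294 and 321 in KO cortex, against 329.6 and 319 in WT cortex. The Eif1 RNA groups were far apart, its footprint groups overlapped, and the efficiency change was -0.52 ± 0.12 (adjusted p = 0.0219). Ints3, a subunit of the Integrator complex, had RNA of 933 and 883 in KO cortex, against 675 and 600.3 in WT cortex, and footprints of 162 and 191 in KO cortex, against 192 and 195 in WT cortex, with an efficiency change of -0.65 ± 0.14 (adjusted p = 0.02). Hist1h4d, a histone H4 gene, had RNA of 1537 and 1478 in KO cortex, against 898 and 666 in WT cortex, and footprints of 256 and 247 in KO cortex, against 214 and 202 in WT cortex. Its RNA rose by 0.96, its footprints differed by 0.27 and its efficiency fell with -0.69 ± 0.13 (adjusted p = 0.00337), but reads of near-identical H4 copies could be split among them, so its own level is uncertain. Cacybp, which binds calcyclin, changed by -0.62 and Tspyl4, of the nucleosome assembly protein family, by -0.43 in efficiency, on RNA changes of 0.53 and 0.52.

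Among the footprint-led transcripts, Rad23b carries ubiquitinated proteins to the proteasome and takes part in DNA repair. Its RNA was 3797 and 3769 in KO cortex, against 3178 and 2880.0 in WT cortex, while its footprints were 342 and 349 in KO cortex, against 485 and 476 in WT cortex. RNA and footprints thus differed in opposite directions, neither overlapping between genotypes, and efficiency fell with -0.80 ± 0.11 (adjusted p = 3.57e-06), the smallest p of all transcripts. Ufd1, a partner of the segregase p97 in the removal of ubiquitinated proteins, had footprints of 124 and 116 in KO cortex, against 178 and 169.5 in WT cortex, on RNA of 702 and 701 in KO cortex, against 666 and 630.2 in WT cortex. The Ufd1 footprint groups did not overlap and its efficiency change was -0.64 ± 0.15 (adjusted p = 0.0404). Dnajb6, a co-chaperone of Hsp70, had footprints of 267 and 212 in KO cortex, against 326 and 298 in WT cortex, on RNA of 2177 and 2102 in KO cortex, against 1987 and 1594 in WT cortex. Its efficiency change was -0.65 ± 0.13 (adjusted p = 0.00337), with the lower KO footprints of both mice again clear of the WT mice.

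The remaining footprint-led transcripts were of other kinds. Slc8a1, the sodium and calcium exchanger, had footprints of 193 and 145 in KO cortex, against 180.3 and 271 in WT cortex, and RNA of 3399 and 2976 in KO cortex, against 2273 and 2552 in WT cortex. The Slc8a1 footprint groups overlapped and its RNA groups did not, with log2 fold changes of 0.40 in RNA and -0.40 in footprints. Its call came from the ratio within each mouse, -0.80 ± 0.14 (adjusted p = 0.00127). Crem, a transcription factor of the cAMP response, had footprints of 15.4 and 18.6 in KO cortex, against 40.5 and 31.5 in WT cortex, on RNA of 155 and 215 in KO cortex, against 134 and 158 in WT cortex. It showed the largest fall of the 18, -1.35 ± 0.33 (adjusted p = 0.0466), and the lowest signal. Lrp1, an endocytic receptor, changed by -0.55 and Napg, an attachment protein that helps disassemble SNARE complexes, by -0.52. Without a filter on footprints Ufd1, Crem and Hnrnpa3 were no longer called. Rescaled by the median log ratio, Tra2b was lost too, and rescaled to the library sums Eif1 and Napg as well.

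Both transcripts with a higher efficiency had less RNA and more footprints in KO cortex, though neither difference was called by itself. Snrpn, which encodes the spliceosomal protein SmN, had RNA of 7677 and 8374 in KO cortex, against 9542 and 9165 in WT cortex. Its footprints were 499 and 511 in KO cortex, against 459 and 386 in WT cortex, and neither measure overlapped between genotypes. Its efficiency rose with 0.48 ± 0.11 (SE; adjusted p = 0.02). Snrpn shares a transcript with Snurf, and reads of the overlapping pair could not be separated here. Dctn1, the large subunit of dynactin that works with the motor dynein, had RNA of 4875 and 4478 in KO cortex, against 5893 and 4992 in WT cortex, and footprints of 782 and 773 in KO cortex, against 668 and 672 in WT cortex. Its efficiency change was 0.43 ± 0.10 (adjusted p = 0.0218). By the 0.5 rule Dctn1 counted as buffered and Snrpn as footprint-led, with ratios of RNA to efficiency change close to the limit on either side, and Slc8a1 lay just under it.

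The 3 transcripts next in line for a higher efficiency did not pass. Mmachc, which processes cobalamin, had RNA of 423 and 516 in KO cortex, against 722 and 810.3 in WT cortex, and footprints of 54.8 and 49.2 in KO cortex, against 47.3 and 37.6 in WT cortex. Its RNA fell (adjusted p = 0.0192) and its efficiency change was 1.00 ± 0.25 (adjusted p = 0.0566). Atf4, the transcription factor of the integrated stress response whose own translation is known to be controlled by upstream reading frames, had RNA of 3552 and 3573 in KO cortex, against 1591 and 1336 in WT cortex. Its footprints were 139 and 160.5 in KO cortex, against 35.5 and 33.1 in WT cortex. Atf4 rose by 1.29 in RNA and by 2.09 in footprints (adjusted p = 0.000162 and 0.000108), so the footprint difference was larger, with an efficiency change of 0.80 ± 0.20 (adjusted p = 0.059). Mmachc and Atf4 passed when libraries were rescaled by the median log ratio. Rnf208 had footprints of 84.6 and 84.6 in KO cortex, against 63.2 and 55.7 in WT cortex, on RNA of 758 and 746 in KO cortex, against 1024 and 818 in WT cortex, with 0.79 ± 0.20 (adjusted p = 0.0643).

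**Figure D2:**
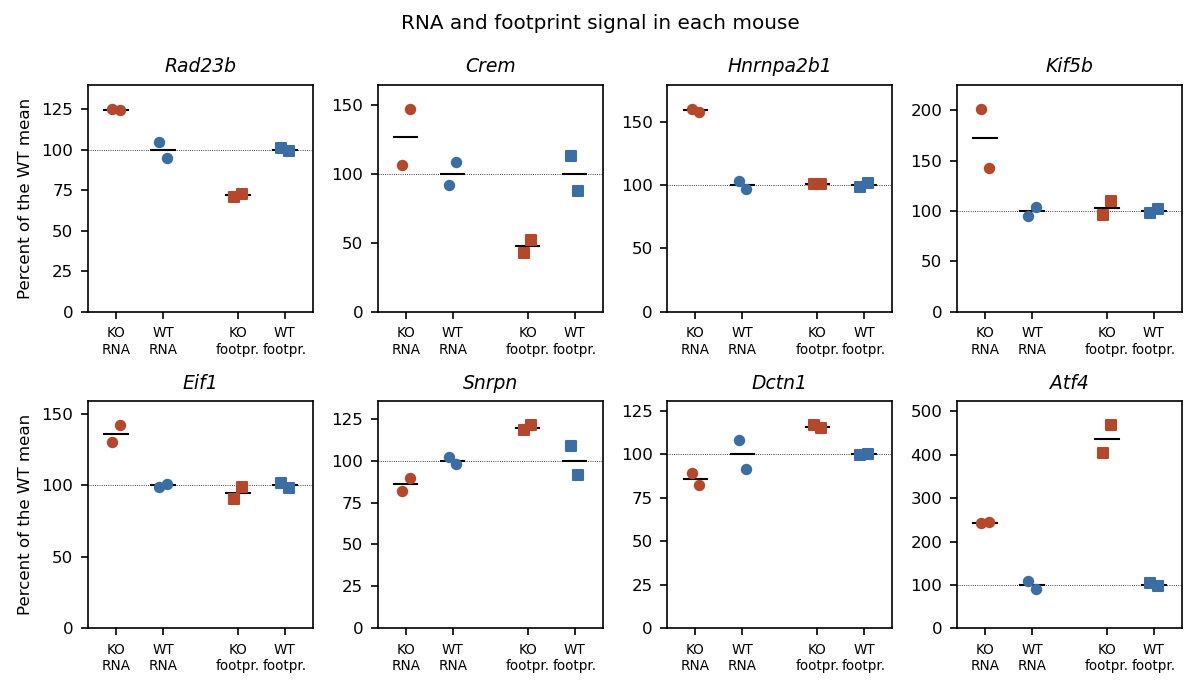
RNA (circles) and footprint signal (squares) of each of the 4 mice for 8 transcripts, as percent of the WT mean, with KO in red left of WT in blue and a bar at each mean of 2 mice. In Rad23b and Crem the KO footprints lie below the WT mice, in Hnrnpa2b1, Kif5b and Eif1 the KO RNA alone lies above, in Snrpn and Dctn1 KO footprints lie above and KO RNA below, and in Atf4 both lie above with footprints farther.

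How far footprints followed was next read from the transcripts called for RNA. The ratio of the footprint to the RNA log2 fold change sorted them into buffered (at most 0.5), carried (between) and amplified (at least 1.5). Of the 160 with higher RNA, 69 (43.1%) were buffered, 88 carried and 3 (1.88%) amplified. Of the 176 with lower RNA, 34 (19.3%) were buffered, 134 carried and 8 (4.55%) amplified. The median RNA and footprint changes were 0.58 and 0.30 for the higher transcripts, and -0.66 and -0.55 for the lower. A footprint change of the opposite sign was seen for 9 of the higher (5.62%) and 7 of the lower (3.98%). The RNA values that called these transcripts also enter the ratio, as its denominator. The footprint minimum of 10 was met on the mean of all 4 mice, and 299 transcripts lay below it in 1 genotype, 14 of them called for RNA and none for efficiency. Without these 299 the classes were 69 buffered, 86 carried and 3 amplified of 158 higher, and 33, 125 and 6 of 164 lower, a choice made after seeing the data. The difference between the directions was not tested.

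Transcripts were therefore also chosen in 1 pair of mice and read in the other. Those with an RNA difference above 0.5 on the log2 scale between KO mouse 1 and WT mouse 1 (346) had median differences of 0.29 in RNA and 0.20 in footprints between KO mouse 2 and WT mouse 2. Those below -0.5 (398) had -0.33 in RNA and -0.36 in footprints. Chosen in KO mouse 2 and WT mouse 2, the higher transcripts (527) had 0.28 in RNA and 0.17 in footprints between KO mouse 1 and WT mouse 1. The lower ones (905) had -0.15 in RNA and -0.05 in footprints. Footprint over RNA was thus 0.687 and 0.625 for the higher transcripts in the 2 readings, but 1.07 and 0.354 for the lower, so only the higher transcripts gave a similar ratio both times. Over all 10674 transcripts the median differences between KO mouse 2 and WT mouse 2 were 0.06 in RNA and 0.02 in footprints.

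The buffered rises with the smallest RNA p included Hnrnpa2b1 and Hist1h4d, given above, and 4 more. N4bp1, a protein that binds the ubiquitin ligase Nedd4, had RNA of 2030.4 and 1854 in KO cortex, against 1187 and 1114 in WT cortex, and footprints of 87.8 and 77.5 in KO cortex, against 79.7 and 74.1 in WT cortex. Inpp5f, a phosphoinositide phosphatase, had RNA of 1600.4 and 1632 in KO cortex, against 933 and 999.5 in WT cortex, and footprints of 100.1 and 111 in KO cortex, against 97.3 and 76.2 in WT cortex. Efr3a, which anchors a lipid kinase at the plasma membrane, had RNA of 3897 and 3866 in KO cortex, against 2523 and 2372 in WT cortex, and footprints of 299 and 319 in KO cortex, against 273 and 240.3 in WT cortex. In all of these RNA was called and footprints were not, with log2 RNA and footprint changes of 0.75 and 0.10 for N4bp1, 0.74 and 0.29 for Inpp5f and 0.67 and 0.27 for Efr3a. Hist2h2bb, a histone H2B gene, had 1.03 and 0.46. None of these 4 passed for efficiency, with adjusted p between 0.0581 and 0.397.

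The amplified transcripts were few. Besides Atf4, the higher ones were Fbxo9, an F-box subunit of ubiquitin ligases, with footprints of 99.8 and 93.3 in KO cortex, against 43.7 and 52.7 in WT cortex, and Fam13b, with footprints of 56.9 and 63.7 in KO cortex, against 31.0 and 27.5 in WT cortex. Their log2 RNA and footprint changes were 0.58 and 0.99 for Fbxo9, and 0.51 and 1.02 for Fam13b. KO footprints lay clear above WT footprints in both. Among the lower ones, the LIM protein Crip2 had footprints of 174 and 161 in KO cortex, against 314 and 286 in WT cortex, with RNA and footprint changes of -0.53 and -0.83. The synaptic adhesion protein Tenm1 had footprints of 22.2 and 28.9 in KO cortex, against 54.3 and 68.1 in WT cortex (-0.71 and -1.23). The collagen Col19a1 had footprints of 2.85 and 8.62 in KO cortex, against 11.9 and 17.1 in WT cortex (-0.72 and -1.33). It passed the footprint minimum only through the WT mice. The efficiency of these 5 was not called (adjusted p from 0.453 to 0.797).

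Most footprint calls were also RNA calls: 21 of 22 higher (95.5%) and 24 of 41 lower (58.5%). The exception among the higher was Hspbp1, a regulator of Hsp70. The 17 transcripts lower in footprints without an RNA call included Gria3, Rad23b, Lrp1 and Col1a1. These names were chosen after their values were seen. Gria3, an AMPA receptor subunit, had footprints of 156 and 112 in KO cortex, against 220.3 and 278 in WT cortex, on RNA of 1728 and 1857 in KO cortex, against 2195 and 2980.5 in WT cortex. Its footprints fell by 0.90 (adjusted p = 0.0251), and its RNA differed by -0.51 (adjusted p = 0.063).

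Gene groups were then read as lists. For each, the counts called and the median log2 fold changes stand beside those of all transcripts (0.04 in RNA, 0.00 in footprints, -0.03 in efficiency). Also given is how many members had both KO mice below both WT mice in efficiency, which held for 23.0% of all transcripts, or above, which held for 15.3%. By sign, RNA was higher in 5979 of all 10674 transcripts and footprints in 5376. The efficiency change was negative in 5985 of them (56.07%). Of the 26 lists, 14 kept the sign of their median efficiency change under every scaling, filter, pseudocount, replicate block and left-out mouse, and 12 changed it in at least 1. Those that changed were the cytosolic ribosomal proteins, glutamate receptors, ion channels, integrated stress response targets, synaptic proteins lower by proteomics, tRNA modification enzymes, immediate early genes, unfolded protein response chaperones, iron and polyamine genes, and the markers of excitatory neurons, inhibitory neurons and microglia. In the subunits of oxidative phosphorylation, the mitochondrial complexes that make ATP, RNA was higher in 76 of 77 by sign and footprints in 52 of 77. Of the 77 subunits, RNA rose for 11 and fell for 0, while no footprint or efficiency change was called (limma, adjusted p). The medians were 0.28 in RNA, 0.07 in footprints and -0.23 in efficiency. The efficiency change was negative in 76 of 77, the exception being Ndufs3, and 56 of 77 (72.7%) had both KO mice below both WT mice, with none above.

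Efficiency was lower by median in each complex. Relative to each transcript's mean over the 4 mice, the median efficiency of the subunits was -0.12 and -0.10 in KO mice, against 0.10 and 0.13 in WT mice. Their median RNA was 0.15 and 0.14 in KO mice, against -0.09 and -0.20 in WT mice, and their median footprints were 0.01 and 0.03 in KO mice, against 0.00 and -0.05 in WT mice. Both KO mice lay below both WT mice in efficiency, and above them in RNA and, narrowly, in footprints. The median efficiency change was -0.20 in complex I (37 subunits), -0.13 in complex II (4), -0.25 in complex III (9), -0.25 in complex IV (11) and -0.22 in ATP synthase (15). The RNA and footprint medians were 0.30 and 0.12 in complex I and 0.16 and 0.04 in complex II. No subunit of complex II was called for RNA. Of its 4 subunits, 2 had both KO mice above both WT mice in RNA and 1 had them below. Of the 11 subunits called for RNA, 8 were buffered, among them Atp5j2, Uqcrq, Ndufa2 and Ndufb8, and 3 were carried, Ndufa5, Ndufb10 and Ndufa6. The list median stayed between -0.23 and -0.18 under every rescaling, filter and left-out mouse tried.

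Single subunits came near the threshold without passing it. Cox5a of complex IV had RNA of 1054 and 1086 in KO cortex, against 832 and 816 in WT cortex, and footprints of 348 and 389 in KO cortex, against 409.9 and 364 in WT cortex. Its RNA groups did not overlap, its footprint groups did, and its efficiency difference was -0.45 ± 0.11 (adjusted p = 0.0594). Atp5l of ATP synthase had RNA of 1235 and 1158 in KO cortex, against 978 and 898 in WT cortex, and footprints of 282 and 267 in KO cortex, against 322 and 278 in WT cortex (-0.47 ± 0.12, adjusted p = 0.0643). Atp5g1, of its membrane ring, had RNA of 1197 and 1181 in KO cortex, against 949 and 951 in WT cortex, and footprints of 335 and 359.8 in KO cortex, against 414 and 347 in WT cortex (-0.45 ± 0.12, adjusted p = 0.0643). These transcripts are short, with a median of 143 codons, and the shortest 20% of all transcripts had a median efficiency change of -0.10. Set against the median of their own quintile of coding length, the subunits differed by a median of -0.14, and against their own quintile of footprint level by -0.17.

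Cytosolic ribosomal proteins, whose transcripts are as short (median 151.5 codons), gave another picture, with footprints following RNA. Of 80 transcripts, RNA rose for 4 and no footprint or efficiency change was called. The medians were 0.24 in RNA, 0.24 in footprints and 0.00 in efficiency. RNA was higher in 79 of 80 and footprints in 77 of 80 by sign, and 10 of 80 had both KO mice below both WT mice in efficiency and 10 had them above. Large subunit proteins had a median efficiency change of -0.02 and small subunit proteins of 0.03. The median efficiency per mouse was -0.05 and 0.06 in KO mice, against -0.07 and 0.07 in WT mice, so KO and WT mice interleaved. Rpl36 had RNA of 1485 and 1331 in KO cortex, against 1229 and 1154 in WT cortex, and footprints of 137 and 152 in KO cortex, against 154 and 168 in WT cortex (-0.40 ± 0.15 in efficiency, adjusted p = 0.357). Rps15a lay on the other side, with footprints of 199 and 181 in KO cortex, against 154 and 167 in WT cortex (0.33 ± 0.15, adjusted p = 0.479), and for Rpl15 RNA rose by 0.48 and footprints differed by 0.23. The RNA medians of the oxidative phosphorylation subunits and the ribosomal proteins were thus close, at 0.28 and 0.24, and their footprint medians were not, at 0.07 and 0.24. The difference between the lists was not tested.

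Mitochondrial ribosomal proteins, which translate the transcripts of the mitochondrial genome, lay between. Of 77, RNA rose for 2, the medians were 0.24 in RNA, 0.10 in footprints and -0.13 in efficiency, and 26 of 77 had both KO mice below both WT mice in efficiency and 5 had them above. Mrpl58 had RNA of 732 and 683 in KO cortex, against 536 and 535 in WT cortex, and footprints of 71.7 and 76.5 in KO cortex, against 94.5 and 92.5 in WT cortex, with -0.73 ± 0.19 in efficiency (adjusted p = 0.0643). Mrpl11 (-0.44 ± 0.17) and Mrps23 (-0.62 ± 0.26) also had both KO mice below the WT mice. Proteasome subunits, which degrade ubiquitinated proteins, showed medians of 0.23 in RNA, 0.05 in footprints and -0.15 in efficiency. Of 32, RNA rose for 2, Psma2 and Psmd6, no efficiency change was called, and 18 of 32 had both KO mice below both WT mice in efficiency and 0 had them above. The core particle had a median efficiency change of -0.21 and the regulatory particle of -0.14. Psma2 had RNA of 979.7 and 996 in KO cortex, against 726 and 698 in WT cortex, and footprints of 317 and 281 in KO cortex, against 292 and 286 in WT cortex, which overlapped (-0.43 ± 0.12, adjusted p = 0.121). Psma5 (-0.43 ± 0.13) and Psmb5 (-0.36 ± 0.11) had RNA changes of 0.14 and 0.25 that were not called. The proteasome median was -0.09 without WT mouse 2 and -0.19 without KO mouse 2.

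**Figure D3:**
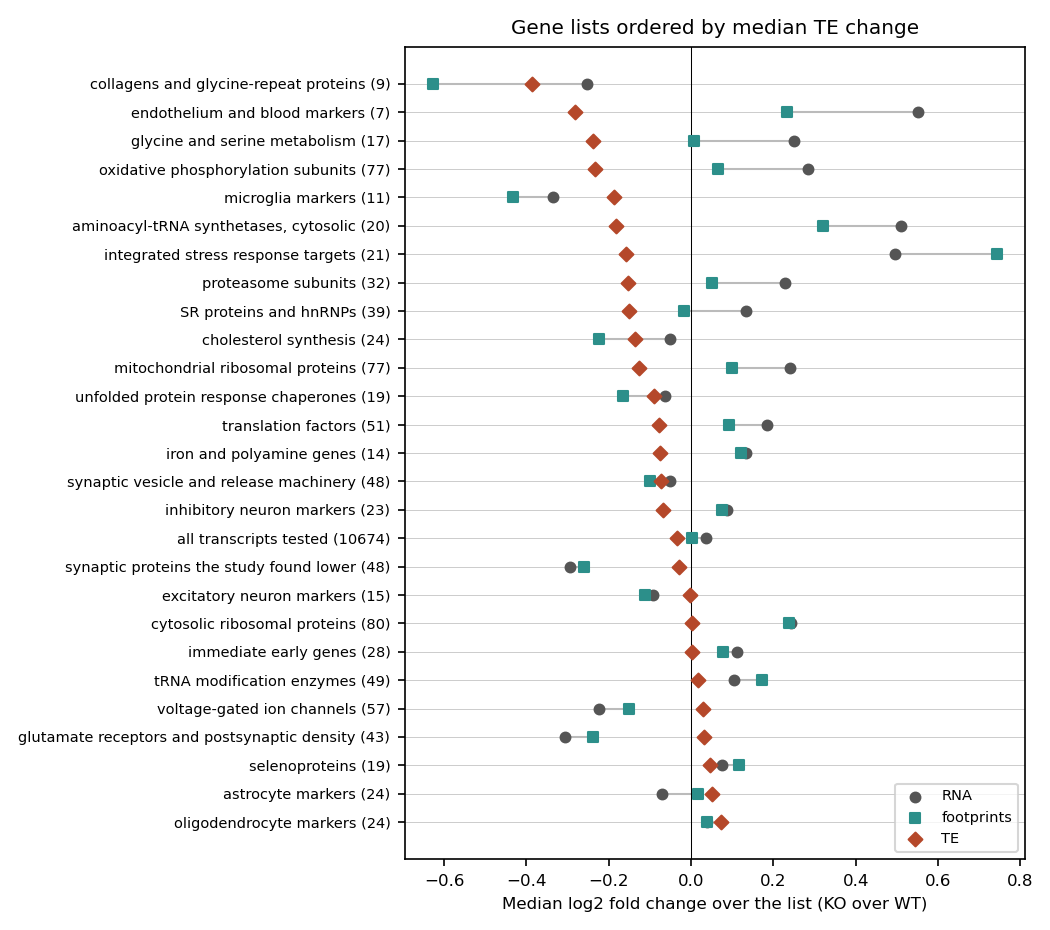
Median log2 fold change (KO over WT) of RNA, footprints and efficiency for each gene list, with the number of transcripts tested, ordered by efficiency. In oxidative phosphorylation subunits RNA stands at 0.28 and footprints at 0.07, whereas in cytosolic ribosomal proteins both stand at 0.24.

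**Figure D4:**
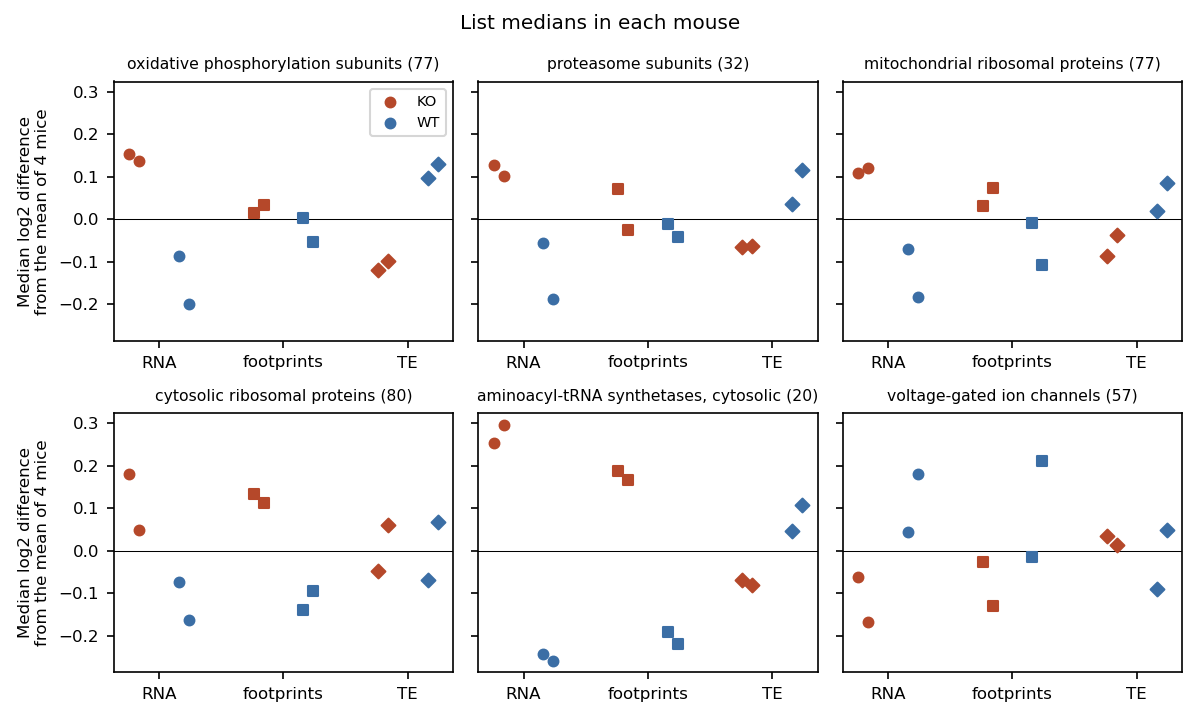
Median RNA (circles), footprints (squares) and efficiency (diamonds, TE) of the members of 6 gene lists in each mouse, on the log2 scale relative to each transcript's mean over the 4 mice, with KO in red left of WT in blue. In efficiency the oxidative phosphorylation subunits lie at -0.12 and -0.10 in KO mice and at 0.10 and 0.13 in WT mice, while the cytosolic ribosomal proteins interleave.

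In the cytosolic aminoacyl-tRNA synthetases, which load amino acids onto tRNAs, most RNA calls were carried into footprints, while efficiency was lower by median. Of 20, RNA rose for 11 and footprints for 6, none fell, and no efficiency change was called. The medians were 0.51 in RNA, 0.32 in footprints and -0.18 in efficiency, and 11 of 20 had both KO mice below both WT mice in efficiency and 2 had them above. The efficiency change was negative in 17 of 20. Set against the median of their own quintile of coding length, the synthetases differed by a median of -0.17, and against their own quintile of footprint level by -0.13. Of the 11 with higher RNA, 10 were carried and Tars was buffered. Sars, the seryl-tRNA synthetase, had RNA of 3437 and 3609 in KO cortex, against 1862 and 1732 in WT cortex, and footprints of 630.3 and 617 in KO cortex, against 384 and 372 in WT cortex, each far apart. Nars, for asparagine, had RNA of 3725 and 4046 in KO cortex, against 2322 and 2182 in WT cortex, and footprints of 679 and 679 in KO cortex, against 503 and 468 in WT cortex. Tars, for threonine, had RNA of 724 and 788 in KO cortex, against 465 and 509 in WT cortex, but overlapping footprints of 116 and 143 in KO cortex, against 134 and 113 in WT cortex (-0.57 ± 0.16 in efficiency, adjusted p = 0.131). Gars, which charges tRNAs for glycine, rose by 0.60 in RNA (adjusted p = 0.0169) with a footprint difference of 0.42. Translation factors had medians of 0.18 in RNA, 0.09 in footprints and -0.08 in efficiency, with RNA higher for 4 of 51, footprints higher for 2 and efficiency lower for Eif1 alone, and 17 of 51 had both KO mice below both WT mice in efficiency and 6 had them above. Eif3c, a core subunit of the initiation factor eIF3, rose in RNA (5900.5 and 6055 in KO cortex, against 3257 and 2929 in WT cortex) and in footprints (943 and 956 in KO cortex, against 606 and 585 in WT cortex). Eif4a1, the helicase that unwinds transcript leaders, had footprints of 586 and 626 in KO cortex, against 737 and 653 in WT cortex, on RNA of 2435 and 2484 in KO cortex, against 2272 and 2139 in WT cortex (-0.35 ± 0.10, adjusted p = 0.0878).

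Targets of the integrated stress response, which ATF4 turns on when amino acids or charged tRNAs run short, were among the largest RNA changes. Of 21 tested, RNA rose for 10 and footprints for 5, with none lower and no efficiency call. The medians were 0.49 in RNA, 0.74 in footprints and -0.16 in efficiency, where the footprint median exceeds the RNA median although the median efficiency change is below 0. Both KO mice lay below both WT mice in efficiency for 9 of 21 and above for 4. Of the 10 with higher RNA, 9 were carried and only Atf4 was amplified. Mthfd2, of mitochondrial folate metabolism, changed by 2.42 in RNA and 2.23 in footprints. Ddit3, a transcription factor of the stress response, changed by 1.58 and 1.69. Asns, which makes asparagine, changed by 1.16 and 0.92. Cebpb had footprints of 51.3 and 55.8 in KO cortex, against 19.3 and 51.1 in WT cortex, with a low value in WT mouse 1 only. Ddit3 and Nupr1 met the footprint minimum in 1 genotype only, and without them the list medians were 0.49 in RNA, 0.57 in footprints and -0.19 in efficiency. Without WT mouse 2 the median efficiency change of the list was 0.06.

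Genes of glycine and serine metabolism held both kinds. Of 17, RNA rose for 3 and footprints for 2, the medians were 0.25 in RNA, 0.01 in footprints and -0.24 in efficiency, and 8 of 17 had both KO mice below both WT mice in efficiency and 1 had them above. Shmt2, which converts serine to glycine in mitochondria, had RNA of 311 and 303 in KO cortex, against 126 and 108 in WT cortex, and footprints of 71.6 and 110.0 in KO cortex, against 46.8 and 51.7 in WT cortex. Its RNA rose by 1.40 (adjusted p = 0.00133), and its footprints differed by 0.84 (adjusted p = 0.12). Psph, the last step of serine synthesis, had RNA of 306 and 286 in KO cortex, against 131 and 106 in WT cortex, and footprints of 108 and 115 in KO cortex, against 49.2 and 56.1 in WT cortex, so both rose. Srr, which makes D-serine, had overlapping RNA (1266 and 1356 in KO cortex, against 1346 and 1305 in WT cortex) and fewer footprints (139 and 149.6 in KO cortex, against 199 and 210.4 in WT cortex), with an efficiency difference of -0.49 ± 0.14 (adjusted p = 0.148). Psat1 and Phgdh, of the same pathway as Psph, had efficiency differences of -0.24 ± 0.13 and -0.08 ± 0.16, and Mthfd1l one of -0.66 ± 0.26 (adjusted p = 0.386). Without KO mouse 2 the list median was -0.39, and without KO mouse 1 -0.16.

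The SR proteins and hnRNPs, which bind nascent RNA and steer splicing, held 4 of the 18 lower efficiencies, among them Hnrnpa2b1, Tra2b and Hnrnpa3. Of 39, RNA rose for 7, of which 3 were buffered and 4 carried. Footprints rose for 1 and fell for 1. The medians were 0.13 in RNA, -0.02 in footprints and -0.15 in efficiency, and 17 of 39 had both KO mice below both WT mice in efficiency and 1 had them above. The hnRNPs had a median efficiency change of -0.16 (24), and the SR proteins with the Tra2 proteins one of 0.02 (12). The coding sequences of the hnRNPs held a median of 3.6% GGA codons and those of the SR and Tra2 proteins 1.93%, against 1.51% in the middle quintile of all transcripts. Without KO mouse 1 the list median was -0.22 and without KO mouse 2 -0.10.

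Neuronal groups with lower RNA had footprints lower by about as much. Glutamate receptors and postsynaptic density proteins (43) had medians of -0.31 in RNA, -0.24 in footprints and 0.03 in efficiency, and 11 of 43 had both KO mice below both WT mice in efficiency and 11 had them above. RNA fell for 2 and footprints for 1. Voltage-gated ion channels (57) had medians of -0.22 in RNA, -0.15 in footprints and 0.03 in efficiency. RNA fell for 8, all of them carried, footprints fell for 2, and 8 of 57 had both KO mice below both WT mice in efficiency and 11 had them above. Cacna1e, a calcium channel subunit, fell in RNA (1968 and 1825 in KO cortex, against 3180.5 and 3882 in WT cortex) with footprints of 164 and 125 in KO cortex, against 193 and 237 in WT cortex. In both lists WT mouse 2 was the highest, with median RNA relative to the transcript means of -0.09 and -0.18 in KO mice, against 0.06 and 0.23 in WT mice for the glutamate list and -0.06 and -0.17 in KO mice, against 0.04 and 0.18 in WT mice for the channels. Kcnip2 (0.51 ± 0.20 in efficiency), which binds potassium channels, and Grm2 (-0.47 ± 0.19), a glutamate receptor, did not pass. Shank2, a scaffold of the postsynaptic density, had 0.40 ± 0.16 and overlapping mice.

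The study found a list of synaptic proteins lower by proteomics of the same mouse line, so the direction of that list is no independent evidence. Of 48, RNA fell for 5, footprints for 3 and efficiency for none, the medians were -0.29 in RNA, -0.26 in footprints and -0.03 in efficiency, and 10 of 48 had both KO mice below both WT mice in efficiency and 4 had them above. Nrgn, a calmodulin-binding protein of dendritic spines, had RNA of 27169.6 and 29669 in KO cortex, against 40284 and 31892 in WT cortex, and footprints of 391 and 398 in KO cortex, against 476 and 484 in WT cortex. Neither measure overlapped, both were lower in KO cortex without a call, and efficiency differed by 0.05 ± 0.11 (adjusted p = 0.946). Nptxr fell in RNA by 0.53 with a footprint difference of -0.43. Dlg4, Gria2, Syngr3 and Snap25 had efficiency differences of 0.14 ± 0.10, 0.00 ± 0.11, -0.09 ± 0.16 and -0.19 ± 0.08, none of them called. Synaptic vesicle and release genes (48) had medians of -0.05 in RNA, -0.10 in footprints and -0.07 in efficiency, and 17 of 48 had both KO mice below both WT mice in efficiency and 5 had them above. Among them Rab3a (-0.31 ± 0.09, adjusted p = 0.132), Napa (-0.32 ± 0.10) and Pclo (-0.29 ± 0.10) came closest.

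Glycine repeats and glycine codons were examined in their own right. Of 32 collagens and other proteins with glycine repeats, 9 were tested, with medians of -0.25 in RNA, -0.63 in footprints and -0.39 in efficiency. RNA fell for 3, footprints for 1, Col1a1, and efficiency for none, though 8 of 9 efficiency changes were negative. Both KO mice lay below both WT mice in efficiency for 3 of 9 and above for 1. Col1a1, the fibrillar collagen chain, had footprints of 48.5 and 59.5 in KO cortex, against 121 and 93.1 in WT cortex, on RNA of 94.2 and 134 in KO cortex, against 132 and 130.4 in WT cortex. Its footprints fell by 0.97 (adjusted p = 0.0381) and its efficiency differed by -0.75 ± 0.20 (adjusted p = 0.0742). Without Col19a1, which met the footprint minimum only through the WT mice, the medians were -0.24 in RNA, -0.59 in footprints and -0.35 in efficiency, and RNA fell for 2 of 8. Col25a1, a neuronal collagen, differed the other way in efficiency (0.48 ± 0.29). The collagen median rested on KO mouse 1: it was -0.04 without that mouse and -0.64 without KO mouse 2. Microglial C1qb and C1qc are among these 9, and microglial markers were high in WT mouse 2.

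A coding sequence was found for 10573 transcripts. Sorted into quintiles by their share of GGA codons, the transcripts richest in GGA (2.31% to 13.8% of codons, 2115 transcripts) had a median efficiency change of -0.06, against -0.02 to -0.03 in the other quintiles. That quintile held 10 of the 18 lower and 1 of the 2 higher efficiencies, and 28.0% of it had both KO mice below both WT mice. In the 10% richest in GGA the median was -0.08. Without the SR proteins and hnRNPs the quintile had 2091 transcripts, a median of -0.06 and 6 lower efficiencies, an alternative chosen after seeing the data. The study reported from its ribosome profiling that GGA-rich transcripts were over-represented among those of lower efficiency in KO cortex. The footprint values used here had been corrected by the authors for stalling, and its effect on GGA-rich transcripts was not tested. The calls gathered more in transcripts with much signal. The quintile highest in footprint level held 15 of the 18 lower and 2 of the 2 higher efficiencies. That highest in RNA level held 13 and 2. For all glycine codons together the richest quintile had a median of -0.03 with 10 lower efficiencies, and the richest 10% a median of -0.05 with 7. By GGT, another glycine codon, the richest quintile had -0.05 and the richest 10% -0.07. By GGC these medians were -0.02 and -0.03, and by GGG both were -0.03. The poorest quintiles were low as well, with medians of -0.05 by all glycine codons, -0.04 by GGT, -0.06 by GGC and -0.06 by GGG.

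Other properties moved with efficiency by as much or more. By coding length, from the shortest quintile to the longest, the median efficiency changes were -0.10, -0.05, -0.03, 0.00 and -0.01. By footprint level, from the lowest to the highest, they were 0.03, -0.02, -0.03, -0.04 and -0.06, and 34.7% of the highest quintile had both KO mice below both WT mice. By coding GC content they were -0.05, -0.06, -0.04, -0.02 and 0.01. Properties of a transcript are correlated with each other, and their separate parts were not tested. Over the 10674 transcripts, the RNA and footprint changes correlated with r = 0.567 and the RNA and efficiency changes with r = -0.301, both over transcripts of the same 8 libraries and the second with RNA on both sides.

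**Figure D5:**
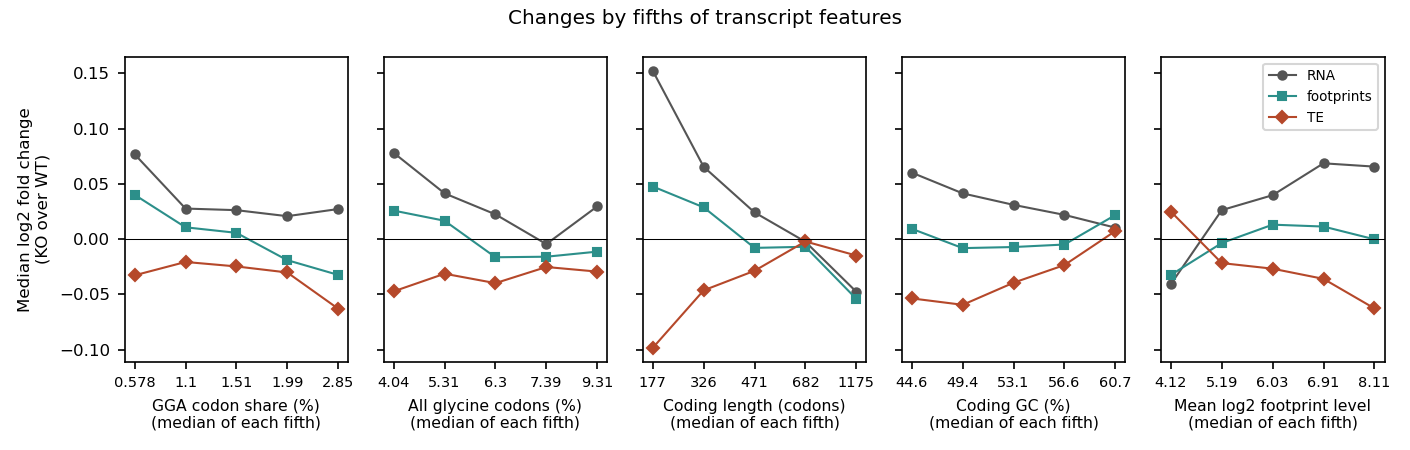
Median log2 fold change (KO over WT) of efficiency (diamonds), RNA (circles) and footprints (squares) in quintiles of all transcripts by GGA codon share, share of all glycine codons, coding length, coding GC content and mean footprint level, with each quintile's median property under it. The lowest efficiency median, -0.10, is that of the shortest coding sequences, and the quintile richest in GGA stands at -0.06.

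Smaller groups gave the following values. Enzymes of tRNA modification (49, Nsun2 included) had no efficiency call and no RNA or footprint call besides Nsun2. Their medians were 0.10 in RNA, 0.17 in footprints and 0.02 in efficiency, and 8 of 49 had both KO mice below both WT mice in efficiency and 8 had them above. Mettl2 had footprints of 18.0 and 21.3 in KO cortex, against 11.1 and 7.48 in WT cortex (1.23 ± 0.43 in efficiency, adjusted p = 0.284), and Trmt112 had -0.34 ± 0.17. Selenoproteins, which need a modified tRNA to read a stop codon as selenocysteine, had medians of 0.08 in RNA, 0.12 in footprints and 0.05 in efficiency, and 1 of 19 had both KO mice below both WT mice in efficiency and 7 had them above. Gpx4, Dio2 and Selenos had 0.23 ± 0.14, 0.56 ± 0.37 and 0.50 ± 0.27. Genes of iron and polyamine metabolism under known translational control (14) had medians of 0.13 in RNA, 0.12 in footprints and -0.08 in efficiency, with Sms at 0.51 ± 0.15 (adjusted p = 0.133), Azin2 at -0.49 ± 0.18 and Srm at -0.30 ± 0.15. Both KO mice lay below both WT mice in efficiency for 4 of 14 and above for 4.

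Cholesterol synthesis genes (24) had medians of -0.05 in RNA, -0.22 in footprints and -0.14 in efficiency, and 9 of 24 had both KO mice below both WT mice in efficiency and 2 had them above. Tm7sf2, a sterol reductase, had footprints of 13.7 and 13.2 in KO cortex, against 29.5 and 24.4 in WT cortex (-1.20 ± 0.37, adjusted p = 0.171), while Fdft1, the squalene synthase, had -0.30 ± 0.12. Chaperones of the unfolded protein response (19) had medians of -0.06 in RNA, -0.17 in footprints and -0.09 in efficiency, with RNA of 0.16 and -0.20 in KO mice, against -0.14 and 0.22 in WT mice relative to the transcript means, so the mice of a genotype disagreed. In efficiency both KO mice lay below both WT mice for 4 of 19 and above for 3. Herpud1, Pdia3 and P4hb had -0.42 ± 0.16, -0.32 ± 0.14 and 0.31 ± 0.18 in efficiency. Immediate early genes (28), which follow neuronal activity, had medians of 0.11 in RNA, 0.08 in footprints and 0.00 in efficiency, and 4 of 28 had both KO mice below both WT mice in efficiency and 9 had them above. Egr3, Btg2 and Dusp6 had 0.31 ± 0.13, 0.65 ± 0.38 and 0.21 ± 0.13, none of them called.

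Markers of cell types were read beside these groups. Excitatory neuron markers summed to 110110.4 and 110494 in KO cortex, against 125468 and 119325 in WT cortex in RNA (15 tested), inhibitory neuron markers to 16777 and 15704 in KO cortex, against 14125 and 15548 in WT cortex (23) and astrocyte markers to 52714 and 45876 in KO cortex, against 46655 and 57476 in WT cortex (24). Oligodendrocyte markers summed to 15547 and 14915 in KO cortex, against 17578 and 13246 in WT cortex (24), microglial markers to 877 and 679 in KO cortex, against 809 and 1267 in WT cortex (11 of 20 tested) and endothelium and blood markers to 3593 and 3267 in KO cortex, against 2406 and 3263 in WT cortex (7 of 19 tested). Excitatory sums did not overlap and were lower in KO cortex, inhibitory sums were higher and narrowly did not overlap, and WT mouse 2 was the highest in microglial markers. The part of these differences in the results of other groups was not tested. Defining markers of each type were present, with Camk2a at 26978 and 26687 in KO cortex, against 30778 and 30503 in WT cortex and Slc17a7 at 8176 and 6450.3 in KO cortex, against 7299.8 and 8666 in WT cortex. Gad1, the enzyme that makes GABA, had RNA of 3115 and 3354 in KO cortex, against 2692 and 2264 in WT cortex, Pvalb, of fast-spiking interneurons, had 931 and 1073 in KO cortex, against 655 and 529 in WT cortex, and Gfap, of reactive astrocytes, had 889 and 805 in KO cortex, against 576 and 431 in WT cortex. Gad2 was also higher (2570 and 2474 in KO cortex, against 1952 and 1919 in WT cortex), while Slc32a1 overlapped (342.5 and 267, against 294 and 279). Of the other defining astrocyte markers, Aldh1l1 was lower (310 and 271 in KO cortex, against 434 and 326.5 in WT cortex). Aqp4 overlapped (576 and 561, against 561.5 and 815). The median RNA change of the astrocyte list was -0.07, with 15 of 24 negative. Of the endothelial markers Cldn5 and Flt1 were under the footprint minimum and Pecam1 was not analysed here.

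The efficiency medians of the marker lists were 0.00 for excitatory neurons, -0.07 for inhibitory neurons, 0.05 for astrocytes, 0.07 for oligodendrocytes, -0.19 for microglia and -0.28 for endothelium and blood. No marker was called for efficiency. Both KO mice lay below both WT mice in efficiency for 4 of 15 excitatory, 5 of 23 inhibitory and 0 of 24 astrocyte markers. They lay above for 4, 2 and 5 of these. For oligodendrocytes 2 of 24 lay below and 5 above, for microglia 3 of 11 and 3, and for endothelium and blood 5 of 7 and 0. The last list has 7 transcripts, haemoglobin among them, where Hba-a2 and Hbb-bs had RNA changes of 0.62 and 0.59 and footprint changes of 0.33 and 0.23. Microglial transcripts had RNA and footprint medians of -0.34 and -0.43, and Cx3cr1 fell in RNA (124 and 149 in KO cortex, against 206 and 249 in WT cortex). In RNA the calls among markers were Gfap, Pvalb and Hba-a2 higher and Otof, Enpp2 and Cx3cr1 lower. Efficiency differences of single markers closest to the threshold were -0.44 ± 0.15 for Cldn11, 0.43 ± 0.16 for Olig1 and 0.46 ± 0.16 for Aldh1l1 in glia, and 0.79 ± 0.33 for Dlx1, -0.29 ± 0.15 for Pvalb and -0.32 ± 0.19 for Reln in interneurons. In excitatory neurons Tbr1, Neurod6 and Etv1 had -0.21 ± 0.10, -0.26 ± 0.14 and 0.20 ± 0.14.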

How the data were processed

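Cortex of 2 Nsun2 KO and 2 WT mice was profiled by ribosome footprinting (RNase I monosomes) and by total RNA sequencing of the same mice. The signal values are the authors': RNA counts normalized by the median, and footprint counts corrected for stalling and normalized by the median in Ribolog, on the longest coding transcript per gene (Ensembl release 96), as deposited. Tools in the submitters' processing notes are Bowtie2 2.4.2, SAMtools 1.11, cutadapt 3.1 and UMI-tools 1.1.1. No count model was run on these normalized values.

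Efficiency was log2(footprint + 1) minus log2(RNA + 1) per mouse, for transcripts with a mean footprint value of at least 10. It was tested with limma 3.58.1 (R 4.3.3, trend on the mean footprint level, genotype as the only term), as were RNA and footprints apart, all two-sided with Benjamini-Hochberg adjustment over 10674 transcripts. A fold change on this scale understates that of low transcripts. With 2 mice per genotype an exact permutation test cannot go below p = 0.333. On simulated data of the same size, 62% of efficiency changes of 1 on the log2 scale were called, 12% of those of 0.5 and 0.029% of unchanged transcripts. The simulation took the deposited values as read counts, gave every transcript the same dispersion and left RNA unchanged. Its noise may thus differ from that of the data.

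The members and the 26 gene lists were chosen with earlier results of these data known. The transcripts named were Nsun2, up to 10 efficiency calls per direction by size (where under 5 passed, the 5 of smallest p), up to 6 buffered and 6 amplified RNA calls by RNA p, up to 3 members per list by efficiency p, the genes the study names and Atf4, of which a few are not reported here. Coding sequences came from GENCODE vM21 on GRCm38 and matched 10573 of the tested transcripts. Alternatives were other pseudocounts, filters, scalings, a replicate block, an interaction fit, no trend, and leaving out each mouse. The other samples of the series were not used here.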

Additional observations from a re-analysis of the deposited data

How the results depend on the processing

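All 20 efficiency calls kept their direction under every alternative in which they were tested. Only the scalings and pseudocounts could have turned a direction. The filters, the replicate block, the interaction fit and the fit without trend leave a fold change as it is. With KO and WT mice apart in all 20, leaving out a mouse could not turn it either. Calls were 2 higher and 18 lower with a pseudocount of 0.5, 3 and 21 with 5, 2 and 15 without a filter, and 2 and 17 with a footprint minimum of 50, which left out Crem. Scaling by the median log ratio gave 4 higher and 14 lower and moved the median over all transcripts to -0.01, and scaling to the sum gave 5 and 12 and moved it to 0.02. An interaction fit over the 8 libraries gave 0 higher and 0 lower (464 transcripts at an unadjusted p below 0.05), and limma without the trend gave 0 and 0 (744). In that fit RNA had 33 calls and footprints had 0 (1101 at an unadjusted p below 0.05). Leaving out a mouse gave 0 higher and 0 to 7 lower for efficiency, 35 to 256 higher and 15 to 258 lower for RNA, and 5 to 166 higher and 12 to 382 lower for footprints. The causes of these differences were not tested. Of the 26 list medians in efficiency, those that moved by more than the spread between mice numbered 12 with KO mouse 1 left out, 2 with KO mouse 2, 7 with WT mouse 1 and 8 with WT mouse 2, and 7 moved when scaled to the sum and 3 by the median log ratio. A sign changed for 3, 3, 4 and 6 lists in the same order of mice, and for 2 and 1 in the scalings. With the richest 10% by GGA codons in place of 20% the median efficiency change was -0.0835.

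The replicate numbers were not taken as pairs: samples of the same number deviated together with a correlation of 0.028 in efficiency, -0.109 in RNA and -0.149 in footprints. A replicate block gave 13 higher and 113 lower for efficiency, all 20 calls among them, 4 and 2 for RNA, and 2 and 1 for footprints. With the numbers crossed, an alternative chosen after seeing the data, the block gave 0 and 11 for efficiency, 494 and 553 for RNA, and 136 and 298 for footprints.

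The footprint depth is unknown, so the precision of a low footprint value could not be given. In the simulation with 2 mice per genotype, most efficiency changes of 0.5 on the log2 scale were missed. It took footprint values as read counts, so the share missed in these data could not be given.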

Other observations

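Histone genes were looked at after Hist1h4d and Hist2h2bb had appeared among the calls, so the list was chosen after seeing the data. Histones package DNA, and most of their transcripts end without a poly(A) tail, which total RNA libraries record. Of 70 core and linker histone genes tested, RNA rose for 19 and fell for 0, and footprints rose for 1 and fell for 0. The median log2 fold changes were 0.53 in RNA, 0.26 in footprints and -0.23 in efficiency, against 0.04, 0.00 and -0.03 over all transcripts. Of the 19 with higher RNA, 10 were buffered and 9 carried. Both KO mice lay below both WT mice in efficiency for 31 of 70 and above for 6, and efficiency fell only for Hist1h4d by the limma test, with 961 of all 10674 transcripts at an unadjusted p below 0.05. The summed RNA of the 70 genes was 19037 and 19477 in KO cortex, against 14769 and 12154 in WT cortex. Their summed footprints were 6757 and 7193 in KO cortex, against 5950.2 and 5605 in WT cortex. Both sums were higher in both KO mice. In RNA the WT mice lay farther apart than the KO mice, whereas in footprints the KO mice lay farther apart. Histone copies are near-identical in sequence, so values of single copies are uncertain.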
